A study of Schizosaccharomyces pombe with 8 samples.

Results

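The genes described here encode the proteins of the small (40S) subunit of the cytosolic ribosome of fission yeast, Schizosaccharomyces pombe. They were taken from a list of 52 systematic gene names, and all 52 were found among the 5129 genes that each of 2 deposited tables lists. Together they encode 31 kinds of ribosomal protein: 42 members form 21 families of 2 copies, and 10 have no other copy among the members. The RNA came from 8 libraries in 4 groups of 2. The libraries labelled epe1KO_tfs1DN carried, by their labels, a deletion of epe1 and an integrated tfs1DN, a dominant-negative TFIIS (an elongation factor) driven by the thiamine-repressible nmt1 promoter. The study describes the RNA of that strain as coming from a single isolate. It describes experiments on such strains as done with thiamine present, under which repression of tfs1DN was leaky. Most tfs1 transcripts then came from the wild-type allele, by its account. For RNA sequencing its methods name growth in YS medium with glucose, without mention of thiamine. The libraries labelled epe1KO carried, by their labels, the epe1 deletion alone; Epe1 is a factor that counteracts heterochromatin. The libraries labelled seb1-1 carried a mutant allele of seb1, which encodes an RNA-binding protein of the RNA polymerase II machinery, and the libraries labelled WT were wild type. Whether the 2 libraries of a group came from separate cultures is not stated in the labels.

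Each table holds 1 mean normalised count per gene over its 4 libraries. The epe1KO_tfs1DN and epe1KO libraries share the first, called the epe1KO table, and the seb1-1 and WT libraries share the other, called the WT table. The tables hold no value per library, and their columns on the authors' own comparison were not used, so no test was run and every comparison below is a description. The tables were normalised separately, and between them genotype, batch and normalisation cannot be told apart. Levels are given per kb of annotated transcript, so that genes of different length can be set side by side. Ratios of 2 copies inside a table do not depend on how the tables were scaled.

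A ribosome holds equal numbers of most of its proteins, and a growing yeast cell spends much of its transcription on their genes. Many of these genes exist in fission yeast as duplicated copies that encode identical or nearly identical proteins. Their promoters are known for the HomolD box, which stands in for a TATA box in this species, and for the HomolE box, which often lies beside it.

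The listed means summed to 15644300 in the epe1KO table and 22457000 in the WT table. Low means were sums of 4 fixed steps, each the worth of 1 read in a library, and these steps gave relative depths. The largest size factor was 7.06 times the smallest in the epe1KO table, which thus held 1 shallow library, and 1.57 times the smallest in the WT table. Intervals given below are 95% intervals for counting error only, set from the shallowest library, and they do not cover differences between cultures. The epe1 transcript had a mean of 706 in the epe1KO table and 712 in the WT table, so its counts do not show the deletion that the labels name.

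The members held 9.50% of all listed counts in the epe1KO table and 9.67% in the WT table. Among all listed genes by mean, 51 members lay above percentile 90 in the epe1KO table and 50 in the WT table. The median member stood at 39968 per kb in the epe1KO table and 53344 per kb in the WT table. Members differed widely among themselves: the highest over the lowest level per kb was 27 in the epe1KO table and 108 in the WT table. The lowest was rps1401 in both tables. Against the second lowest member this ratio was 8.99 in the epe1KO table and 47.5 in the WT table. The central members were far closer, with an upper over a lower quartile of 1.83 in the epe1KO table and 2.42 in the WT table.

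Promoter stretches of 8 members are shown, chosen after their values were seen. Among them, rps21, rps2 and rps20 are 3 of the 6 highest members by level. The copies of rps14 and rps22 form the families with the most unequal copies. The gene rps29 stands next to rps2202 at the upper end of the ratios between the tables. Each runs from 100 to 31 bases before the transcript start of the RefSeq annotation (assembly ASM294v3), in the direction of the gene. Capitals mark an exact HomolD box (CAGTCACA) or the 8 bases searched for the HomolE box (CCCTACCC), on either strand.
rps21: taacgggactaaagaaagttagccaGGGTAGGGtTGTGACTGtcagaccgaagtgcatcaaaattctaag
rps2: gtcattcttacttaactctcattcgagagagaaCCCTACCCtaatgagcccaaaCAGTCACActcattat
rps20: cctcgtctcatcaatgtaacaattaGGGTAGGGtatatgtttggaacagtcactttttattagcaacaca
rps29: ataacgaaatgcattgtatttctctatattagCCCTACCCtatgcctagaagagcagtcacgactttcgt
rps1402: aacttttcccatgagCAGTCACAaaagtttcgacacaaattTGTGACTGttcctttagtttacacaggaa
rps1401: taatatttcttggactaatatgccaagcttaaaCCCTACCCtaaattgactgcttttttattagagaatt
rps2201: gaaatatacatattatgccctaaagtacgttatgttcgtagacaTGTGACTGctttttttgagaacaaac
rps2202: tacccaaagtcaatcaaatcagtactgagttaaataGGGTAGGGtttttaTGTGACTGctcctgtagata
The stretches of rps21, rps2 and rps2202 hold both boxes. The rps1402 stretch holds 2 HomolD boxes on opposite strands, whereas that of rps1401, its copy, holds a HomolE box and no HomolD box even when 1 mismatch is allowed. Those of rps20 and rps29 hold HomolE and a HomolD with 1 mismatch. The promoters of rps2502, rps7 and ubi3, also among the 6 highest members by level, are not printed. In exact letters rps2502 holds HomolE only, rps7 HomolD only and ubi3 neither.

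The members with the highest levels over both tables were rps21, rps2502, rps7, ubi3, rps2 and rps20, of which only rps2502 has a copy among the members. The gene rps21 (SPBC18E5.06) had 98743 per kb in the epe1KO table and 245410 per kb in the WT table, where it was the highest member. The gene rps2502 (SPAC694.05c), for eS25, had 93310 per kb in the epe1KO table and 118246 per kb in the WT table. The gene rps7 (SPAC18G6.14c), for eS7, had 79666 per kb in the epe1KO table and 135809 per kb in the WT table. These genes were near the top of both tables. The gene ubi3 (SPAC6G10.11c), which encodes a fusion of ubiquitin to a protein of the small subunit, had 80789 per kb in the epe1KO table and 129144 per kb in the WT table. Of its 50-base windows, 20% occur in another listed transcript, so part of its count may have been assigned elsewhere. The gene rps2 (SPCC576.08c), for uS5, a protein of the mRNA entry channel, had 63242 per kb in the epe1KO table and 158510 per kb in the WT table. The gene rps20 (SPCC576.09), for uS10, had 71744 per kb in the epe1KO table and 126511 per kb in the WT table.

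The order of the members was similar but not the same in both tables. Levels per kb had a Spearman correlation of 0.76 across the 52 members, which share their libraries within a table, and 5 of the 10 highest members were shared. The gene rps13 (SPAC6F6.07c), for uS15, was the highest member in the epe1KO table at 101510 per kb, and held rank 18 in the WT table at 76522 per kb. The zinc-binding proteins eS27 and uS14 are encoded by rps27 (SPBC1685.10) and rps29 (SPBC1685.09). In the epe1KO table rps27 held rank 6 at 78855 per kb, against rank 30 at 45009 per kb in the WT table. In the epe1KO table rps29 held rank 8 at 72286 per kb, against rank 35 at 40051 per kb in the WT table. The remaining members with a single listed gene were rps3 (SPBC16G5.14c) and rps2401 (SPAC17G6.06). The gene rps3, for uS3 at the mRNA entry site, had 60476 per kb in the epe1KO table and 88474 per kb in the WT table. The gene rps2401, for eS24, had 30183 per kb in the epe1KO table and 41129 per kb in the WT table, and a further copy, rps2402, is in the tables but not on the list. The 10 members with a single listed gene had a median of 75571 per kb in the epe1KO table and 107492 per kb in the WT table. The 42 members of families had medians of 38240 per kb in the epe1KO table and 50269 per kb in the WT table. Each of these 42 is 1 of 2 listed copies for its protein, so a part is set beside a whole. Levels summed over the copies of a family were not compared with the single genes.

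**Figure D1:**
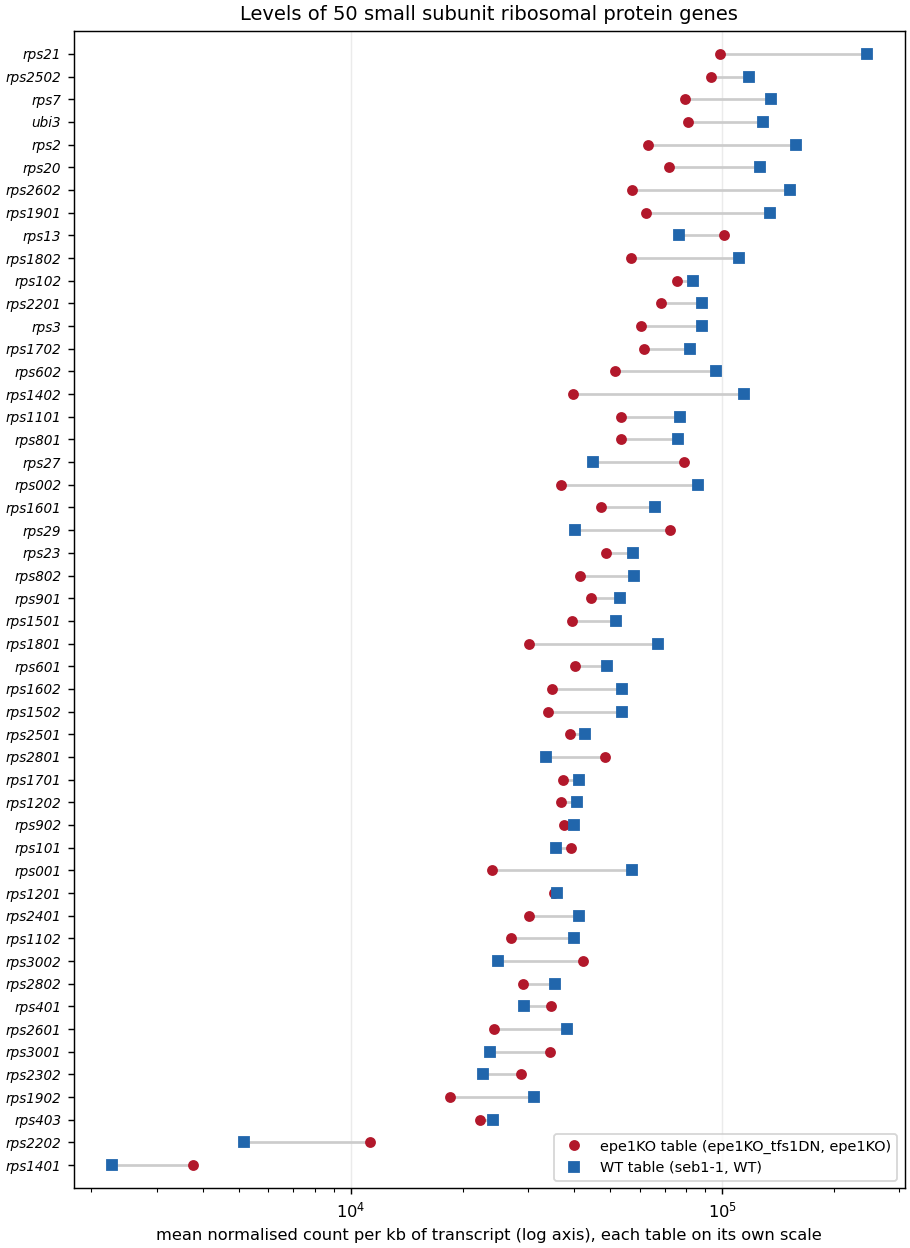
Level of each of 50 members as mean normalised count per kb of transcript on a log axis, with the epe1KO table as circles and the WT table as squares, each on the scale of its own table. Members are ordered by the geometric mean of both tables; rps21 is at the top, and rps2202 and rps1401 lie well below the other members in both tables.

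The lowest members were each the lower copy of a family. The gene rps1401 (SPAC3H5.05c) had a mean of 2190 (interval 2101 to 2279) in the epe1KO table and 1320 (1280 to 1359) in the WT table, or 3763 per kb and 2268 per kb. It lay at percentile 78.3 of all listed genes in the epe1KO table and 64.2 in the WT table. The gene rps2202 (SPAC5D6.01) had 11292 per kb in the epe1KO table and 5167 per kb in the WT table. The next members lay closer together, with rps403, rps1902 and rps2302 at 18490 to 28705 per kb in the epe1KO table and 22703 to 31179 per kb in the WT table.

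The copies of the rps14 family differed most. Both encode the same uS11, a protein of the platform of the subunit, and 93.6% of the aligned coding bases are identical. The level of rps1402 (SPBC18H10.13) over that of rps1401 was 10.6 (interval 10.1 to 11.0) in the epe1KO table and 50.6 (49.1 to 52.2) in the WT table. The share of rps1402 in the family was thus 91.3% in the epe1KO table and 98.1% in the WT table. The 2 ratios differed 4.80-fold, the largest difference among the 21 families. The gene rps1402 itself had a mean of 22802 in the epe1KO table and 65910 in the WT table. The copies share an unbroken stretch of 101 bases, which begins at coding base 178 of rps1402 and is shown because a read lying wholly within it matches both genes.
rps14 shared stretch: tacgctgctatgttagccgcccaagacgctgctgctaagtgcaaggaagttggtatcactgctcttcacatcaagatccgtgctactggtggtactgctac
Of all 50-base windows, 9.90% of those of rps1402 and 9.76% of those of rps1401 occur in the other copy. An annotated transcript on the opposite strand covers 100% of rps1401, and the strand setting of the counting is unknown here. The part that either has in the level of rps1401 was not tested.

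The rps22 family showed the same arrangement at a smaller size. Its copies also encode 1 protein, uS8, which binds 18S ribosomal RNA. The level of rps2201 (SPAC22A12.04c) over that of rps2202 was 6.05 (5.90 to 6.20) in the epe1KO table and 17.1 (16.8 to 17.4) in the WT table. The transcripts differ in length, and without division by length this ratio was 4.23 in the epe1KO table and 12.0 in the WT table. The lower copy of this family stood higher in the epe1KO table, with a mean of 7363 for rps2202 in the epe1KO table and 3369 in the WT table. The copies share under 1% of their windows.

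Other unequal families were rps19, rps26 and rps25. The level of rps1901 (SPBC21C3.13) over rps1902 (SPBC649.02), for eS19, was 3.37 in the epe1KO table and 4.33 in the WT table. The level of rps2602 (SPAC1805.11c) over rps2601 (SPAC806.03c), for eS26 at the mRNA exit, was 2.36 in the epe1KO table and 3.99 in the WT table. The level of rps2502 over rps2501 (SPBC3D6.15), for eS25, was 2.39 in the epe1KO table and 2.77 in the WT table. In all, the copies of 5 families lay over 2-fold apart in the epe1KO table. There were 7 such families in the WT table, which added rps1 and rps23. The level of rps102 (SPAC22H12.04c) over rps101 (SPAC13G6.02c), for eS1, was 1.93 in the epe1KO table and 2.34 in the WT table. The level of rps23 (SPAC23C11.02c) over rps2302 (SPBP4H10.13), for uS12 of the decoding centre, was 1.70 in the epe1KO table and 2.53 in the WT table. The ratio of the copies was nearer to 1 in the epe1KO table in 12 of the 21 families, and the median family ratio was alike, 1.65 in the epe1KO table and 1.65 in the WT table.

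**Figure D2:**
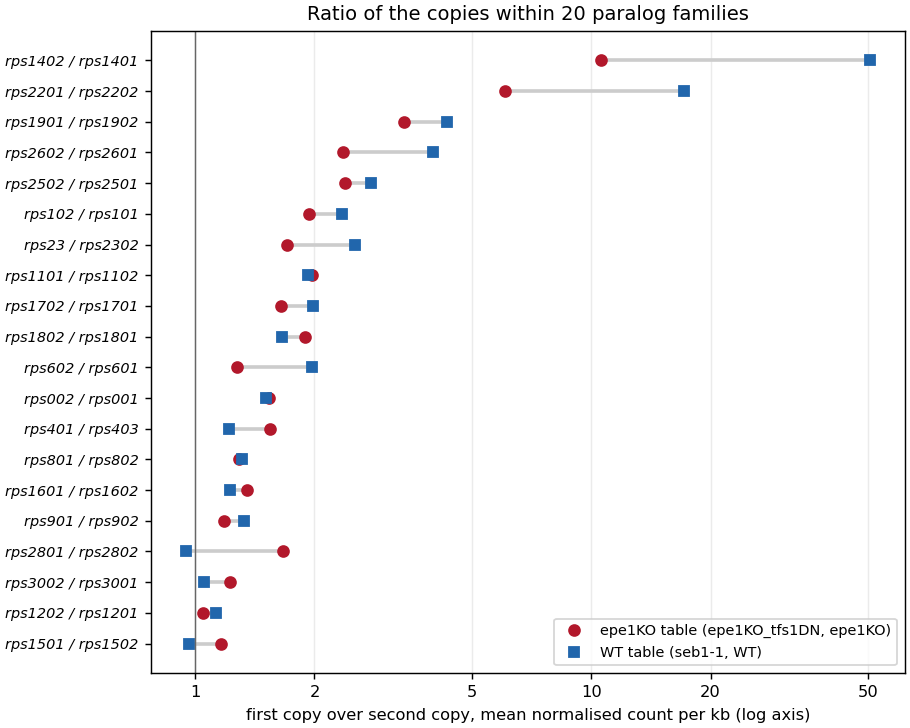
Ratio of the copies within each of 20 families, as the level per kb of the first copy named over the second, on a log axis, with the epe1KO table as circles and the WT table as squares. The rps14 ratio is 10.6 in the epe1KO table and 50.6 in the WT table, and the rps22 ratio 6.05 and 17.1, while most other families lie between 1 and 3.

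The same copy was the higher one in both tables in 19 of the 21 families. The exceptions were rps28 and rps15. The copies rps2801 (SPAC25G10.06) and rps2802 (SPCC285.15c) encode identical eS28 proteins with 82.7% of coding bases identical. Their ratio was 1.66 (1.63 to 1.70) in the epe1KO table and 0.95 (0.93 to 0.96) in the WT table, so rps2801 was the higher copy in the epe1KO table and rps2802 in the WT table. The ratio of rps1501 (SPCC1393.03) to rps1502 (SPAC1071.07c), for uS19, was 1.16 in the epe1KO table and 0.96 in the WT table. The ratio of rps602 (SPAPB1E7.12) to rps601 (SPAC13G6.07c), for eS6, the target of a kinase of the TOR pathway, was 1.28 in the epe1KO table and 1.97 in the WT table. The eS6 copies have transcripts of unequal length, and without division by length the eS6 ratio was 0.82 in the epe1KO table and 1.26 in the WT table.

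The other families had less unequal copies and ratios that moved by under 1.5-fold between the tables. The level of rps1101 (SPAC31G5.03) over rps1102 (SPAC144.11), for uS17, was 1.97 in the epe1KO table and 1.93 in the WT table. The level of rps1802 (SPCC1259.01c) over rps1801 (SPBC16D10.11c), for uS13, was 1.89 in the epe1KO table and 1.65 in the WT table. The level of rps1702 (SPCC24B10.09) over rps1701 (SPBC839.05c), for eS17, was 1.65 in the epe1KO table and 1.98 in the WT table. In these 3 families the higher copy held 62.2% to 66.5% of the family's level. The level of rps401 (SPBC19F8.08) over rps403 (SPAC959.07), for eS4, was 1.55 in the epe1KO table and 1.22 in the WT table. The level of rps002 (SPAPJ698.02c) over rps001 (SPBC685.06), for uS2, was 1.53 in the epe1KO table and 1.51 in the WT table. In these 2 families the higher copy was the same in both tables. The level of rps1601 (SPBC18H10.14) over rps1602 (SPAC664.04c), for uS9, was 1.35 in the epe1KO table and 1.23 in the WT table. The level of rps801 (SPAC2C4.16c) over rps802 (SPAC521.05), for eS8, was 1.29 in the epe1KO table and 1.31 in the WT table. The level of rps901 (SPAC24H6.07) over rps902 (SPBC29A3.12), for uS4, was 1.18 in the epe1KO table and 1.33 in the WT table. By level per kb these 3 families were close to even. The uS9 copies have transcripts of unequal length. Without division by length the uS9 ratio was 1.88 in the epe1KO table and 1.70 in the WT table. The level of rps3002 (SPBC19G7.03c) over rps3001 (SPAC19B12.04), for eS30, was 1.22 in the epe1KO table and 1.05 in the WT table. Without division by length, rps3001 was the higher eS30 copy in both tables. The level of rps1202 (SPBC1685.02c) over rps1201 (SPCC962.04), for eS12, was 1.05 in the epe1KO table and 1.13 in the WT table.

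A relation over the families between how unequal the copies were and how alike their proteins are was not tested. Identical proteins are encoded by 8 families, which include the most unequal, rps14 and rps22, and the much less unequal rps16 and rps30. The least alike copies, those of rps12 with 78.8% of residues identical, were nearly even. Across the families, 74.6% to 94.0% of aligned coding bases were identical.

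The ratio of the tables was then taken for each member, with the median ratio of 4981 genes set to 0 on the log2 scale. That step moved every gene by 0.11 from the deposited means. On this scale the median member was at -0.50, with quartiles of -0.81 and -0.19, and 11 members lay above 0 and 41 below. Another scaling moves every gene by the same amount. With each table divided by its listed total, the median member was at 0.14 and the median gene at 0.64, and 32 members lay above 0 and 20 below. For part of the members the sign of the ratio thus depends on the scaling. The median member lay 0.50 below the median gene on either scale, and the members' order among themselves was the same.

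More than 2-fold lower in the epe1KO table were 10 of the 52 members, beside 8.11% of all genes tested. More than 2-fold higher was 1 member, beside 7.83% of all genes. With totals as the scale, 1 member (1.92%) was over 2-fold lower, beside 2.45% of all genes, and 7 (13.5%) were over 2-fold higher, beside 29.6% of all genes. The member that was over 2-fold lower on both scales was rps1402, at -1.65 relative to the median gene and -1.01 by totals. The member over 2-fold higher on both scales was rps2202, at 1.01 relative to the median gene and 1.65 by totals. The remaining members over 2-fold lower relative to the median gene were rps2602 at -1.53, rps2 at -1.44, rps21 at -1.43, rps001 at -1.36, rps002 at -1.34, rps1801 at -1.27, rps1901 at -1.23, rps1802 at -1.08 and rps602 at -1.02. Both copies for uS2 and both for uS13 are among them. Next to rps2202 at the upper end stood rps29 at 0.74, rps27 at 0.69, rps3002 at 0.64 and rps1401 at 0.62. These 4 were over 2-fold higher by totals, with values of 1.37, 1.33, 1.28 and 1.25, as were rps3001 at 1.06 and rps2801 at 1.05. The upper end thus held the lower copies of the 2 most unequal families, rps14 and rps22, and the lower end the higher copy of rps14. The log2 ratio and the mean level had a Spearman correlation of -0.59 across the 52 members; both are computed from the same means.

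The proteins of the large (60S) subunit are made in equal numbers with those of the small one. The 86 listed genes with rpl or rpp symbols, nearly all for these proteins, had a median ratio of -0.60 relative to the median gene, against -0.50 for the members, with 14 over 2-fold lower and 1 over 2-fold higher. They held 13.7% of listed counts in the epe1KO table and 14.7% in the WT table. Among the 86 are rpp1, rpp21 and rpp40, which encode subunits of RNase P, and the 83 genes without these 3 had the same median of -0.60 and the same counts past 2-fold. Genes for the factors that assemble the small subunit stood elsewhere: the 41 listed had a median of 0.29, with 3 over 2-fold higher and 0 over 2-fold lower. Abundant genes outside the ribosome also lay below 0. The 1254 such genes with means in the members' range had a median of -0.31, with 15.5% over 2-fold lower and 2.87% over 2-fold higher. That range reaches down to the lowest member, at percentile 78.3 in the epe1KO table and 64.2 in the WT table. Above percentile 90 lay 51 members in the epe1KO table and 50 in the WT table. These genes are thus not matched to the members in abundance. Short transcripts lay above 0: the 150 genes outside the ribosome with transcripts under 500 bases had a median of 0.62. The 15 members with transcripts under 500 bases had a median of -0.40 and the 37 longer ones of -0.60. The part of transcript length and abundance in the members' ratios was not tested.

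**Figure D3:**
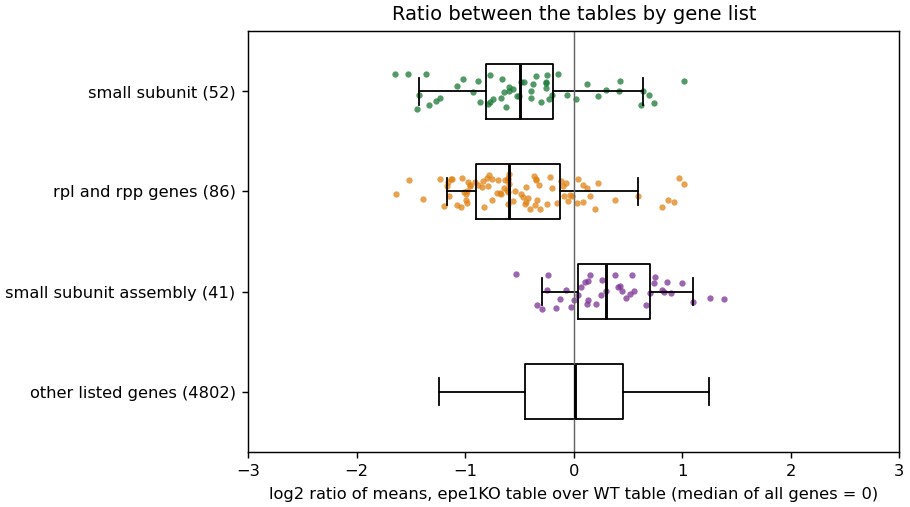
Log2 ratio of the means, epe1KO table over WT table, for 52 small subunit genes, 86 genes with rpl or rpp symbols, 41 small subunit assembly genes and the other listed genes, with the median of all genes at 0. Boxes span the quartiles with the median as a line and whiskers at percentiles 5 and 95, and dots are single genes; the small subunit median is -0.50, the rpl and rpp median -0.60 and the assembly median 0.29.

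There were 3 places where 2 members were direct neighbours among the listed genes. The genes rps2 and rps20 point away from each other with 491 bases between their starts, and were at -1.44 and -0.93 relative to the median gene. The genes rps29 and rps27 lie on the same strand with 441 bases between their transcripts, and were at 0.74 and 0.69, next to rps2202 the highest members. The genes rps1402 and rps1601 lie on the same strand with 1000 bases between them, and were at -1.65 and -0.60.

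The HomolD box, in exact letters and on either strand, was found in the promoters of 32 of the 52 members (61.5%), in the 300 bases from 250 before to 50 after the annotated start. It was found in 54 of the 86 promoters of rpl and rpp genes (62.8%), in 1 of 41 assembly promoters and in 137 of 5110 promoters in all (2.68%). With 1 mismatch allowed it was found in 50 members (96.2%) and in 93.0% of rpl and rpp promoters, against 16.3% of all promoters. The 2 members without it were rps1401 and rps902. In the 32 members the most upstream base of the box lay between 85 and 43 bases before the start, with a median of 51.5, and 20 boxes first met were on the strand of the gene. The HomolE letters were found in 21 members (40.4%) and in 26 rpl and rpp promoters (30.2%), against 1.59% of all promoters. In the members they lay between 83 and 59 bases before the start. In 11 members both boxes were found and in 10 neither. HomolE lay upstream of HomolD in all 11 members that hold both, as the printed stretches of rps21, rps2 and rps2202 show.

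**Figure D4:**
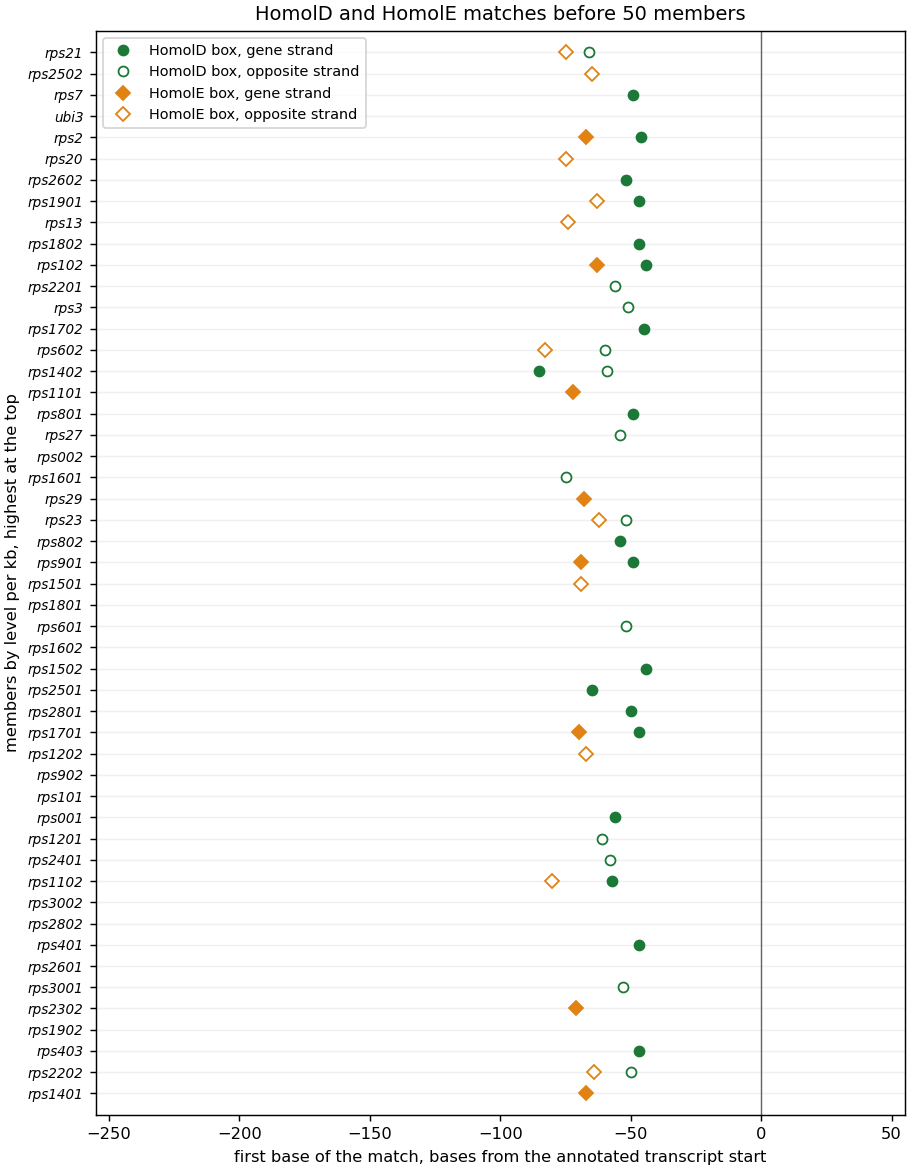
Position of exact HomolD (circles) and HomolE (diamonds) matches in the promoters of 50 members, in bases from the annotated transcript start, with filled symbols for the strand of the gene and open ones for the opposite strand. Members are ordered by level per kb, highest at the top; the matches lie within the 85 bases before the start, and 10 members hold neither in these letters.

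The exact HomolD box did not mark the higher copy in general. It was found in only 1 copy in 16 families, in the higher copy in 10 of these and in the lower in 6, and in both copies in 5. In the rps14 family the higher copy holds it and the lower does not, and in the rps22 family both do. The 32 members with the box had a median of 45766 per kb in the epe1KO table and 57262 per kb in the WT table. The 20 without it had a median of 37181 per kb in the epe1KO table and 40324 per kb in the WT table, and they include rps13, the highest member of the epe1KO table. The levels of members with and without the exact letters overlapped over most of their range. With at most 1 mismatch 50 of the 52 members hold the box. These groups and the family counts thus compare spellings of the box more than its presence.

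Gene structure varied among the members. Their transcripts were 315 to 1270 bases long, and 28 had introns. The 28 members with introns had a median ratio of -0.38 relative to the median gene, and the 24 without of -0.61. The gene IDs place 28 members on chromosome I, 17 on chromosome II and 7 on chromosome III. An annotated transcript on the opposite strand overlaps 35 of the members and covers over 50% of 20. These 20 members had a median ratio of -0.54, and the other 32 of -0.45. Shares over all listed genes were not computed for introns or opposite-strand transcripts. These counts are thus not shown to be particular to the members.

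The tables also list 4 rps genes that were not on the list. The gene rps402, another copy for eS4, had 18220 per kb in the epe1KO table and 14027 per kb in the WT table. Counted with it, rps401 held 46.0% of its family in the epe1KO table and 43.5% in the WT table, against 60.7% in the epe1KO table and 54.9% in the WT table without it. The gene rps2402 had 58965 per kb in the epe1KO table and 71467 per kb in the WT table, above its copy rps2401 in both tables. The copies rps1001 and rps1002, for eS10, had 22558 and 43133 per kb in the epe1KO table and 33680 and 119067 per kb in the WT table.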

How the data were processed

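Poly(A)-selected RNA from 8 fission yeast libraries was sequenced from directional libraries, and the authors aligned the reads with TopHat to the build ASM294v2 and analysed them with DESeq2. For the counting program, its strand setting and all versions, nothing is given in the sources used here. In each of 2 tables the authors deposited a mean signal per gene, the DESeq2 mean of counts divided by size factors over 4 libraries. The further columns hold the authors' own comparison (log2 fold change, its standard error, Wald score, p-values) and were not used, so the genotypes within a table were not compared.

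Means were divided by transcript length from RefSeq (ASM294v3), which was used only for symbols (5111 of 5129 IDs matched), lengths, gene structure and sequence; no coordinates are given. Families share a symbol stem. Table ratios were divided by the median ratio of 4981 genes with an average mean of at least 10. Steps in low means below 6 gave size factors in 65 of 65 and 72 of 72 distinct values, and bounds on the total reads, in units of 1e6 reads, of 16.6 to 117 in the epe1KO table and 72.3 to 113 in the WT table. The steps cannot be assigned to libraries. Reads in 50-base windows that occur in another listed transcript can be split between genes. Scripts used Python 3.11.15, pandas 2.3.3 and NumPy 2.4.6, and were tested on simulated data.

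Named genes were the 6 highest and 6 lowest by level, both copies of every family, members whose higher copy differed, the 5 highest and 5 lowest ratios, every member past 2-fold and single genes. The promoters printed and the neighbouring genes were chosen after their values were seen. The members and lists were chosen with earlier results of these data known. Alternatives were other lengths, scalings, minimum means, folds, totals and motif spellings. The count of rps402 in its family and the rpl and rpp list without RNase P genes were added after seeing the data. The values of 1 family are not reported here and its 2 members are left out of the plots that name genes; counts and medians over all members include them.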

Additional observations from a re-analysis of the deposited data

How the results depend on the processing

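No paired analysis was possible because the tables hold no value per library, and leaving out a replicate was not possible for the same reason. The median log2 ratio of the members was -0.38 with means as deposited and -0.29 with upper quartile scaling, but 0.14 with the listed totals and 0.12 with totals without ribosomal protein genes, so its sign depends on the scaling. These scalings move all genes alike: the median gene was at 0.64 with listed totals and 0.61 with totals without ribosomal protein genes, and the median member lay 0.50 below it on each scale. Past 2-fold, both total scalings gave 7 members higher and 1 lower, against 1 and 10, beside 29.6% higher and 2.45% lower of all genes with listed totals. At 1.5-fold there were 5 higher and 23 lower, beside 19.3% and 20.2% of all genes. The minimum mean changed none of these counts. With coding length, the highest over the lowest level was 29.0 in the epe1KO table and 120 in the WT table, and without length 31.7 in the epe1KO table. Against totals without the other ribosomal protein genes, the members held 11.1% of counts in the epe1KO table and 11.4% in the WT table. HomolD matches numbered 50 with 1 mismatch. Families with the same higher copy in both tables numbered 18 with coding length and 18 without length. Counting error, which was widest relative to its mean for rps1401 (2101 to 2279 in the epe1KO table), does not cover differences between cultures.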
